A study of Mus musculus with 9 samples.

Results

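The nuclear-encoded subunits of the mitochondrial respiratory chain and ATP synthase were described in RAW 264.7 cells, a mouse macrophage cell line. The genes were taken by symbol (names beginning with Ndufa, Ndufb, Ndufc, Ndufs or Ndufv and a number, Uqcr, Cox4 to Cox8, or Atp5), without names that mark pseudogenes and without rows under 100 counts summed over the 9 libraries. Of 51826 genes counted, 86 rows matched, 6 pseudogene names and 5 low rows were left out, and 75 genes remained. They fell into complex I with 35 genes, complex III with 8, complex IV with 15 and complex V (ATP synthase) with 17. Ndufa4 and its paralog Ndufa4l2 were placed in complex IV. Atp5s and Atp5sl were matched by name and are counted in complex V, although they are not subunits of the enzyme. All 75 were annotated as protein coding and all 75 were tested. Inside the count limit, the lowest rows were Cox7a1 with 119 counts in all and Ndufa4l2 with 176, and outside it the highest were Cox4i2 with 14 and Cox6b2 with 10, while Cox8b, Cox8c and Cox7b2 had 0.

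There were 3 groups of 3 cultures, sequenced after capture of polyadenylated RNA. The first group received calycosin, an isoflavone of Astragalus root, at 100 µg/mL for 24 h and then lipopolysaccharide (LPS), a bacterial cell wall component, at 300 ng/mL for 6 h. The second received the same LPS exposure alone, and the third received vehicle. No group received calycosin without LPS. The labels call the cultures biological replicates, all of 1 cell line, so p-values measure the spread between such cultures.

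The respiratory chain passes electrons from NADH through complex I, or from succinate through complex II, to ubiquinone, then through complex III and cytochrome c to complex IV, which reduces oxygen. Complexes I, III and IV pump protons across the inner mitochondrial membrane, and ATP synthase uses the gradient to make ATP. Most subunits are encoded in the nucleus and imported, while a few catalytic ones are encoded in mitochondrial DNA. Macrophages exposed to LPS are known to move their energy supply towards glycolysis.

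Libraries held 27784737 to 38524105 counts. All 10 macrophage markers were detected, with summed levels of 4799 to 5204 CPM (counts scaled to the effective library size) in calycosin plus LPS cells, 6998 to 7070 CPM in LPS cells and 5505 to 5811 CPM in vehicle cells. Of 18 markers of other cell types, 9 had no counts in any library, and their summed level was 0.751 to 1.22 CPM in calycosin plus LPS cells, 4.61 to 6.51 CPM in LPS cells and 0.576 to 0.882 CPM in vehicle cells. The higher sum in LPS cells was mostly Cdh5, an endothelial cadherin, with a mean of 4.76 CPM in LPS cells against 0.354 CPM in vehicle cells, and no other marker of the list had a group mean above 0.641 CPM. Library 3 of the vehicle group and library 2 of the calycosin plus LPS group stood apart from the others of their groups. Mitochondrially encoded genes held 17.2%, 7.45% and 19.4% of the counts in calycosin plus LPS libraries 1 to 3, 13.0% to 14.7% in LPS libraries, and 3.79%, 3.68% and 21.9% in vehicle libraries 1 to 3. Results below are therefore also given without vehicle 3, without vehicle 3 and calycosin plus LPS 2, and with vehicle 3 as the only vehicle library.

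The subunit genes followed the same split between libraries. Their summed level was 4009, 4578 and 3958 CPM in calycosin plus LPS cells, 4644, 4675 and 5373 CPM in LPS cells, and 6593, 6655 and 4590 CPM in vehicle cells. Vehicle 1 and 2 were above all other libraries, and vehicle 3 lay below the 3 LPS libraries. In bulk RNA, fewer cells of a type and less RNA per cell cannot be told apart. Vehicle 3 was nearer the LPS mean than the mean of vehicle 1 and 2 for 67 of 75 subunit genes (89.3%), against 38.2% of all genes tested. It was below both other vehicle libraries for 63 subunit genes (84.0%), against 45.3% of all genes. The median log2 difference of vehicle 3 from the mean of vehicle 1 and 2 was -0.59 over the subunit genes and -0.01 over all genes. Calycosin plus LPS 2 was above libraries 1 and 3 of its group for 49 subunit genes (65.3%), against 41.6% of all genes. What set these libraries apart was not tested.

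**Figure D1:**
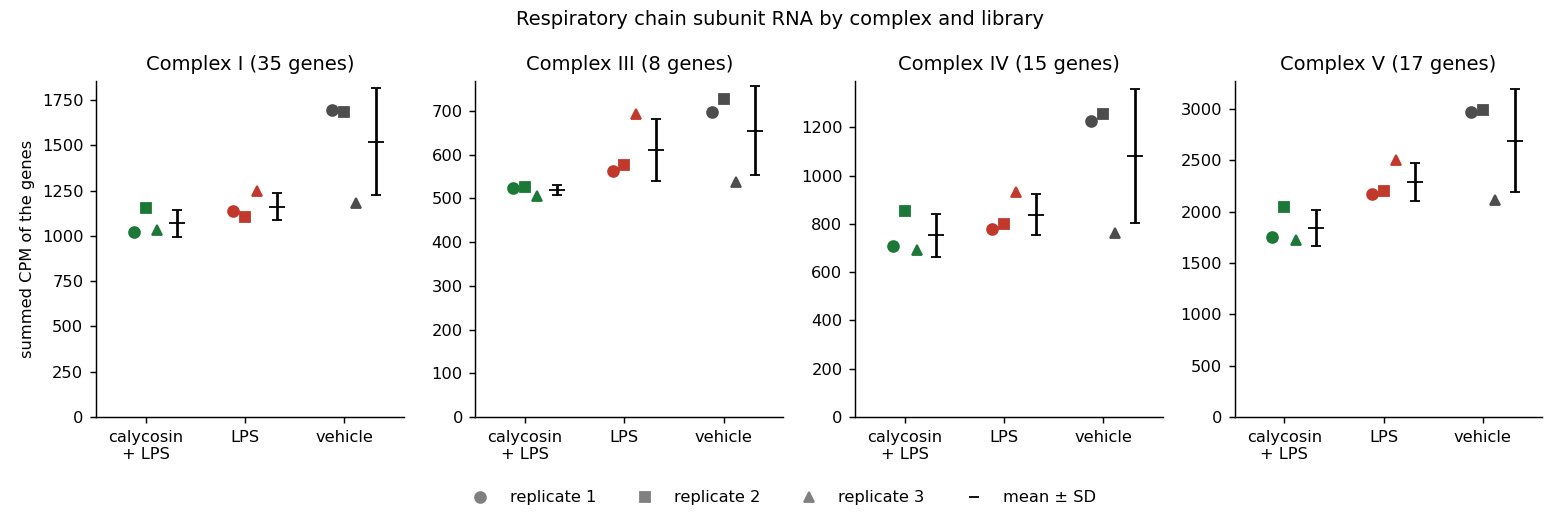
Summed CPM of the nuclear-encoded subunit genes of each complex (y axis) in each library, with the calycosin plus LPS, LPS and vehicle groups along the x axis, symbols for replicates and bars for mean ± SD. In each of the 4 complexes vehicle 1 and 2 are the 2 highest libraries, and vehicle 3 lies at 1180 CPM for complex I, 538 CPM for complex III, 761 CPM for complex IV and 2111 CPM for complex V.

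**Figure D2:**
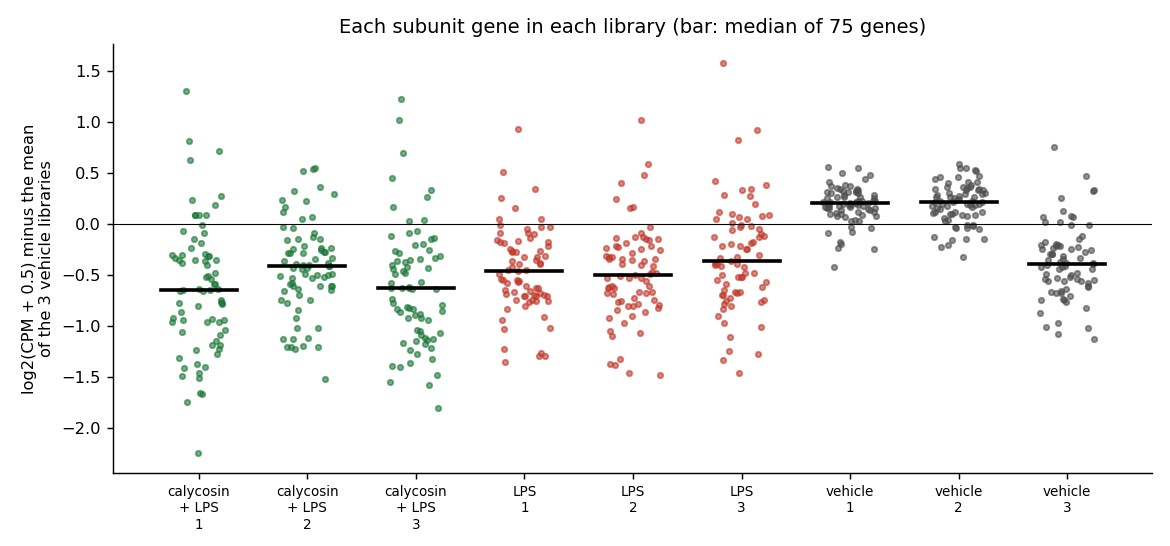
Each of the 75 subunit genes in each library, as log2(CPM + 0.5) minus the mean of the 3 vehicle libraries (y axis), with a bar at the median. The medians are -0.65, -0.42 and -0.63 in calycosin plus LPS libraries, -0.46, -0.50 and -0.37 in LPS libraries and 0.20, 0.21 and -0.39 in vehicle libraries.

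Levels between genes were compared in TPM (transcript abundance scaled for length and depth). The catalytic β and α subunits of ATP synthase, Atp5b and Atp5a1, were the most abundant of complex V. Atp5b had 477, 836 and 415 TPM in calycosin plus LPS cells, 568, 579 and 663 TPM in LPS cells, and 1659, 1637 and 630 TPM in vehicle cells. In complex IV the highest levels were those of Cox8a, with 276 ± 115 TPM in calycosin plus LPS cells, 243 ± 43.4 TPM in LPS cells and 674 ± 339 TPM in vehicle cells (SD, n = 3 each), and of Cox6a1. Uqcrb and Uqcrh led complex III, and Ndufa6 and Ndufs5 led complex I. The lowest members were the muscle isoform Cox7a1, with a group mean of at most 3.07 TPM, and Ndufa4l2, with at most 2.22 TPM.

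Promoter sequences are shown for 5 genes, chosen after their values were seen. Their motifs do not stand for other genes with the same calls, which are counted in the next paragraph. Uqcr11, Atp5e and Uqcrh were called lower with LPS than with vehicle, Ndufs5 was called higher, and Cox6a1 was called in no comparison. The sequences are from RefSeq (build GRCm38.p6), 5′ to 3′ on the gene's strand, which is the minus strand for all 5. They end at the annotated start, and bases that GENCODE M21 places inside the gene were left out. Capitals mark CCGGAAG or its complement, the core bound by ETS factors such as GABP, in the first 3, and the palindromic site of NRF1 (GCGCA, any base, then GCGC) in the last 2. The windows lie at chr10:80406831-80407071, chr2:174464106-174464351, chr4:116075072-116075320, chr4:123718203-123718436 and chr5:115348982-115349208, in the order printed.
Uqcr11: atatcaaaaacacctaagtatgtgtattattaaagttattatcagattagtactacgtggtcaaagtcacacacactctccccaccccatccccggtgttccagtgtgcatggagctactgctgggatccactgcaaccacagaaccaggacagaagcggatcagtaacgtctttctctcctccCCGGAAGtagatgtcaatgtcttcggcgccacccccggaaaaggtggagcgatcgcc
Atp5e: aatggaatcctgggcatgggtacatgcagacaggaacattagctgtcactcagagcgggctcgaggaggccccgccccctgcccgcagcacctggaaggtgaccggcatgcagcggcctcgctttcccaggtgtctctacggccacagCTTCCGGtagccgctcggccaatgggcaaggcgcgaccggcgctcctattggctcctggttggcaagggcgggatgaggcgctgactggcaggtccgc
Uqcrh: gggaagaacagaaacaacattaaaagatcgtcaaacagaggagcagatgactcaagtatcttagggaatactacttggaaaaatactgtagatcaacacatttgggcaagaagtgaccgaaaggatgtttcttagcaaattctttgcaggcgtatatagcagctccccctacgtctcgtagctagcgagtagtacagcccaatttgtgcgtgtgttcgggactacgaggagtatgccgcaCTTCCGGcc
Ndufs5: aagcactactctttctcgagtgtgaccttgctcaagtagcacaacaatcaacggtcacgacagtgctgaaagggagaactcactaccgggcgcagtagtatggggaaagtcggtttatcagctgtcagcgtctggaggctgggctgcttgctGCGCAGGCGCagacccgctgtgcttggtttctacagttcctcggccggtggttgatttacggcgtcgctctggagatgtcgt
Cox6a1: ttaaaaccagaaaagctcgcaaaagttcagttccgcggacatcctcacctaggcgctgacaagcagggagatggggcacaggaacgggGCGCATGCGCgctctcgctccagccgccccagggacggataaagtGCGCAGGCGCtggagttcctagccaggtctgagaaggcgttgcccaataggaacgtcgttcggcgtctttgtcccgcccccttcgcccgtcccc

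RefSeq promoter windows of 300 bases, 250 before and 50 after the start, were found for 63 of the subunit genes, with 69 windows in all. The NRF1 letters, on either strand, were in 23.2% of these windows and in 4.6% of all 32851 windows. CCGGAAG was in 20.3% against 8.86%, AAGATGGCG (the site of YY1) in 13.0% against 1.4%, and CCAAT in 40.6% against 37.4%. In no subunit window did matches of different motifs overlap. Among genes with a window, the NRF1 letters were found for 5 of 27 called lower with LPS and for 9 of 34 not called. CCGGAAG was found for 8 of 27 called lower and for 6 of 34 not called, AAGATGGCG for 3 of 27 and 5 of 34, and CCAAT for 16 of 27 and 11 of 34. Of 2 genes called higher with LPS, the NRF1 letters were found for 1, and CCGGAAG, AAGATGGCG and CCAAT for 0. A match describes letters and not binding.

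Subunit RNAs were mostly lower in LPS cells than in vehicle cells, led by Atp5k, Ndufa2, Atp5e and Uqcr11. With edgeR's quasi-likelihood test and an adjusted p under 0.05, 30 of 75 genes were called lower (40.0%) and 3 higher (4.0%). Over all 14458 genes tested, 28.9% were called lower and 27.3% higher. The median log2 fold change was -0.50 over the subunit genes and -0.07 over all genes, and 64 of 75 were below 0. In complex I, 15 of 35 genes were called lower and 1 higher, with a median of -0.46. Complex III had 3 lower and 1 higher of 8 (median -0.51), complex IV had 2 lower of 15 (median -0.41), and complex V had 10 lower and 1 higher of 17 (median -0.72). No complex IV gene was called higher, by edgeR on all libraries, by an unadjusted p under 0.05, by DESeq2 or by limma on TPM. Without vehicle 3, 1 was called higher, with calycosin plus LPS 2 kept or left out, against 29.8% and 31.0% of all genes.

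The counts depended on vehicle 3. Without it, 53 genes were called lower, against a background of 34.1%, and 4 higher, against 29.8%. With vehicle 3 as the only vehicle library, 5 were called lower, against 20.3%, and 1 higher, against 20.8%, and the median log2 fold change of the subunit genes was -0.01. Of the 30 genes called lower, 17 were called with each of the 9 libraries left out in turn. Those called with vehicle 3 alone were Ndufs8, Uqcr10, Uqcr11, Atp5s and Atp5sl, all among these 17. Of them, Atp5s and Atp5sl are not subunits of ATP synthase. Groups did not overlap in CPM for 23 genes that were lower in all 3 LPS libraries, against 31.3% of all genes, and for 3 that were higher, against 29.5%.

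In complex I, Ndufs8, a core subunit that carries iron-sulphur clusters (ENSMUSG00000059734, GRCm38 chr19:3908863-3912774), had 43.4, 47.6 and 53.7 CPM in LPS cells, against 102, 102 and 68.4 CPM in vehicle cells. The groups did not overlap, and the log2 fold change was -0.91 ± 0.18 (SE; edgeR, adjusted p = 0.00166). With vehicle 3 alone as vehicle it was -0.53. Ndufa2, an accessory subunit of the NADH-oxidising arm, had 20.4, 19.6 and 20.2 CPM in LPS cells, against 73.2, 72.0 and 23.2 CPM in vehicle cells. Its log2 fold change of -1.49 ± 0.37 (edgeR, adjusted p = 0.00646) rests on vehicle 1 and 2, since it was -0.23 and not called with vehicle 3 alone. Ndufb11 and Ndufa3, accessory subunits of the membrane arm, fell by 1.17 and 0.83 on the log2 scale, and Ndufa13, which is also known as a binding partner of STAT3, fell by 1.12. None of these 3 was called with vehicle 3 alone, and the call of Ndufb11 was lost without LPS 1.

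In complex III, Uqcr11, an accessory subunit (ENSMUSG00000020163, GRCm38 chr10:80402997-80406830), had 11.2, 9.92 and 12.8 CPM in LPS cells, against 34.9, 36.3 and 17.6 CPM in vehicle cells. All 3 LPS libraries were below all vehicle libraries, with a log2 fold change of -1.39 ± 0.27 (edgeR, adjusted p = 0.00159) and of -0.66 with vehicle 3 alone. Uqcr10, an accessory subunit beside cytochrome c1, had 25.3, 27.2 and 25.5 CPM in LPS cells, against 53.8, 55.7 and 37.0 CPM in vehicle cells. These groups did not overlap either (log2 fold change -0.91 ± 0.18; edgeR, adjusted p = 0.00164). Uqcrh, the hinge protein that holds cytochrome c1, fell by 0.50. The core proteins Uqcrc1 and Uqcrc2 were not called, with log2 fold changes of 0.00 and 0.15.

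Complex IV had the fewest calls for its size. Cox5a, a matrix-side subunit, had 48.0, 53.0 and 50.9 CPM in LPS cells, against 94.4, 102 and 55.8 CPM in vehicle cells. The groups did not overlap, with a log2 fold change of -0.73 ± 0.20 (edgeR, adjusted p = 0.0111), which was -0.16 and not called with vehicle 3 alone. Cox6b1, which lies between the units of the complex IV dimer, had 39.0, 39.9 and 39.2 CPM in LPS cells, against 82.8, 87.6 and 35.7 CPM in vehicle cells. Vehicle 3 lay below the LPS libraries. Its log2 fold change was -0.80 ± 0.30 (edgeR, adjusted p = 0.0426), the call was lost when any library other than calycosin plus LPS 2 or vehicle 3 was left out, and with vehicle 3 alone the value was 0.12.

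In ATP synthase, Atp5k, which encodes subunit e of the membrane part (ENSMUSG00000050856, GRCm38 chr5:108433244-108434448), showed the largest fold difference of the 75 genes. It had 5.83, 5.29 and 5.40 CPM in LPS cells, against 21.4, 23.2 and 7.76 CPM in vehicle cells. The groups did not overlap, and the log2 fold change was -1.67 ± 0.37 (edgeR, adjusted p = 0.00385), against -0.52 and no call with vehicle 3 alone. Atp5e, the ε subunit of the catalytic head, had 13.8, 10.7 and 11.0 CPM in LPS cells, against 40.6, 41.3 and 13.9 CPM in vehicle cells. Here the highest LPS library and vehicle 3 nearly met, and the log2 fold change of -1.43 ± 0.36 (edgeR, adjusted p = 0.00707) was -0.26 and not called with vehicle 3 alone. The 3 genes that each encode the membrane ring subunit c, Atp5g1, Atp5g2 and Atp5g3, fell by 0.72, 1.33 and 0.96 on the log2 scale, and none was called with vehicle 3 alone. The call of Atp5g2 was also lost without LPS 1, LPS 2, vehicle 1 or vehicle 2. The α and β subunits, Atp5a1 and Atp5b, were not called, with log2 fold changes of -0.05 and -0.23.

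Of the name-matched rows in complex V, 2 are not subunits of the enzyme, and both are among its 10 genes called lower with LPS. Atp5s encodes coupling factor B and Atp5sl (Dmac2) an assembly factor of complex I. Atp5sl had 13.0, 9.06 and 9.97 CPM in LPS cells, against 18.7, 17.9 and 23.9 CPM in vehicle cells. Its log2 fold change was -0.92 ± 0.17 (edgeR, adjusted p = 0.00119), and vehicle 3 was the highest vehicle library. Atp5s fell by 0.88, with 2.23, 2.21 and 2.78 CPM in LPS cells, against 3.76, 3.95 and 5.66 CPM in vehicle cells.

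The 3 genes called higher with LPS were spread over 3 complexes. Uqcrb, which binds ubiquinone in complex III, had 116, 123 and 182 CPM in LPS cells, against 45.2, 48.3 and 103 CPM in vehicle cells. The groups did not overlap, and the log2 fold change was 1.10 ± 0.36 (edgeR, adjusted p = 0.0254). The call was lost without LPS 3, vehicle 1 or vehicle 2, and with vehicle 3 alone (0.43). Ndufs5, an accessory subunit on the intermembrane side of complex I, had 53.5, 63.3 and 80.1 CPM in LPS cells, against 39.8, 40.9 and 46.0 CPM in vehicle cells (log2 fold change 0.64 ± 0.17; edgeR, adjusted p = 0.0107). That call was lost without vehicle 1, and on TPM the sign turned, at -0.13. With vehicle 3 alone the log2 fold change of Ndufs5 was 0.49 and not called. Atp5f1, subunit b of the peripheral stalk, rose by 0.51 and lost its call without vehicle 2, with vehicle 3 alone, with upper-quartile scaling and with the GC and length offset, and on TPM its sign turned, at -0.27.

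**Figure D3:**
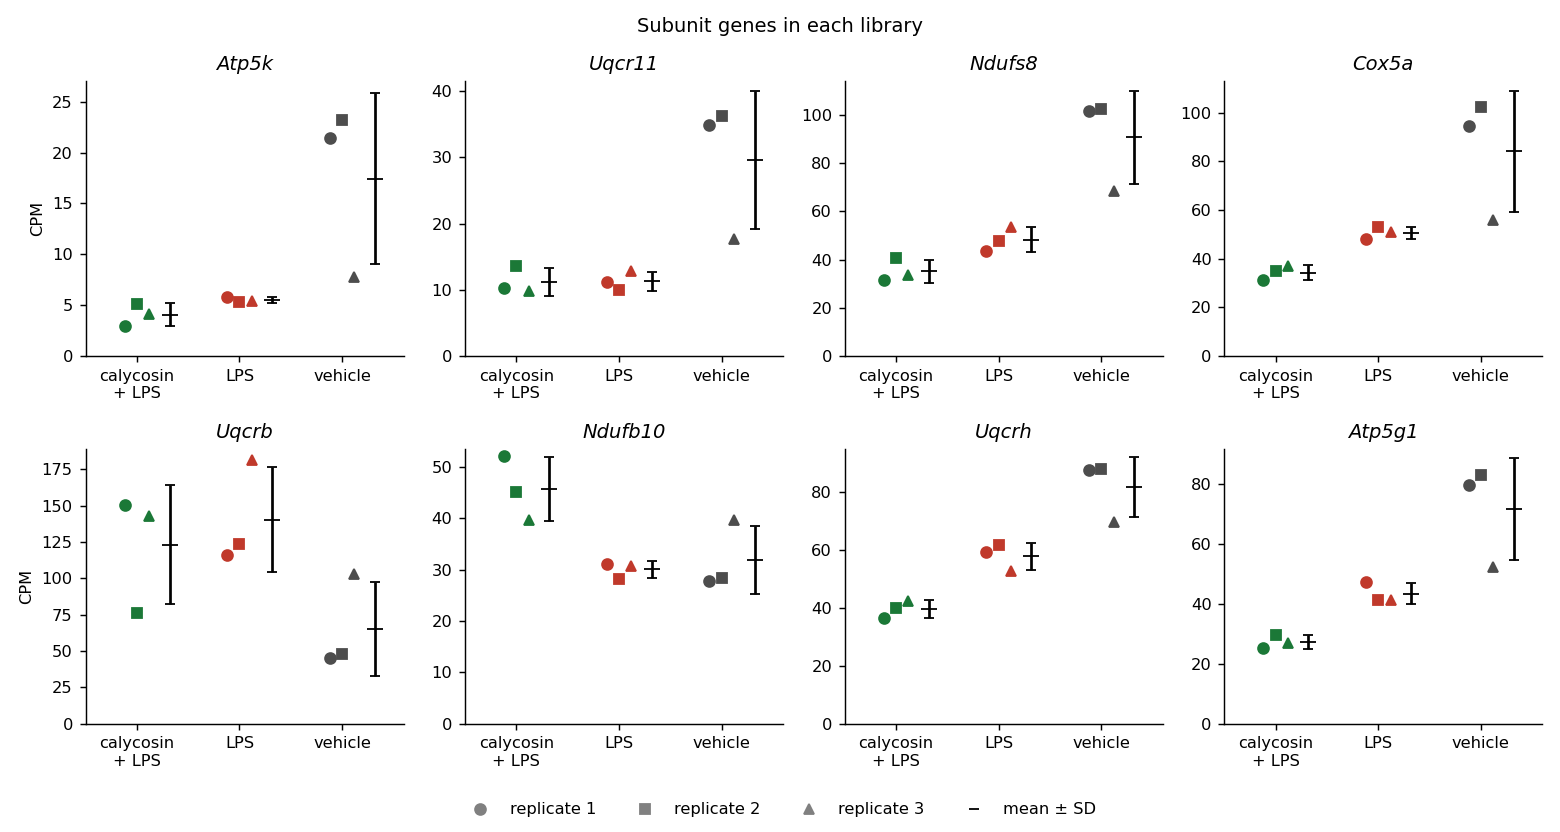
CPM of 8 subunit genes (y axes) in each library, by group along the x axes, with symbols for replicates and bars for mean ± SD. Atp5k, Uqcr11, Ndufs8 and Cox5a are highest in vehicle 1 and 2, Uqcrb is lowest there, Ndufb10 is at 39.7 to 52.1 CPM in calycosin plus LPS cells against 28.2 to 31.1 CPM in LPS cells, and Uqcrh and Atp5g1 are lowest in calycosin plus LPS cells.

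Between calycosin plus LPS cells and LPS cells few subunit genes were called in the fit over all 9 libraries. Of 75, 3 were called lower (4.0%) and 2 higher (2.67%), against 12.9% and 16.1% of all genes tested. The median log2 fold change was -0.19 over the subunit genes and 0.02 over all genes, and 54 of 75 were below 0. No complex IV gene was called, and at an unadjusted p under 0.05 there were 2 lower and 1 higher; DESeq2 called 1 in each direction and limma on TPM 1 higher. Groups did not overlap for 19 subunit genes that were lower in all 3 calycosin plus LPS libraries, against 23.4% of all genes, and for 5 that were higher, against 26.3%. Vehicle 3 is in neither group, and enters this comparison only through the filter, the scaling and the spread estimated over all 9 libraries. Without vehicle 3, 12 genes were called lower, against 17.2%. Without vehicle 3 and calycosin plus LPS 2 the count was 26, against 18%, of which 11 were in complex I, 4 in complex III, 6 in complex IV and 5 in complex V. The number called higher was 2 in both cases, against 21.2% and 20.6%. With limma on TPM the sign of the subunit median differed from that on counts, at 0.13, against 0.25 over all genes. Summed TPM of the 75 genes was 6307, 9625 and 5656 in calycosin plus LPS cells. In LPS cells it was 5896, 5984 and 7237.

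Ndufa10, a matrix-side accessory subunit of complex I, had 62.0, 58.9 and 61.1 CPM in calycosin plus LPS cells, against 82.5, 78.0 and 96.3 CPM in LPS cells. The groups did not overlap, the log2 fold change was -0.50 ± 0.11 (edgeR, adjusted p = 0.00779), and the call held with each library left out in turn. Uqcrh had 36.4, 39.8 and 42.5 CPM in calycosin plus LPS cells, against 59.2, 61.6 and 52.7 CPM in LPS cells (log2 fold change -0.55 ± 0.13; edgeR, adjusted p = 0.0107), and its call was lost without calycosin plus LPS 1. Atp5g1 had 25.2, 29.7 and 27.0 CPM in calycosin plus LPS cells, against 47.5, 41.5 and 41.4 CPM in LPS cells, with a log2 fold change of -0.67 ± 0.17 (edgeR, adjusted p = 0.0176). All 3 genes were lower in every calycosin plus LPS library than in any LPS library. The call of Atp5g1 was lost without calycosin plus LPS 1 or 3 or LPS 1. On TPM none of the 3 was called, with log2 fold changes of -0.26 for Ndufa10, -0.22 for Uqcrh and -0.06 for Atp5g1.

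Ndufb10, an accessory subunit of the complex I membrane arm, had 52.1, 45.2 and 39.7 CPM in calycosin plus LPS cells, against 31.1, 28.2 and 30.7 CPM in LPS cells. The log2 fold change was 0.61 ± 0.16 (edgeR, adjusted p = 0.0209) with no overlap, and the call was lost without calycosin plus LPS 1 or any 1 of the LPS libraries. Atp5s had 4.67, 3.87 and 4.47 CPM in calycosin plus LPS cells, against 2.23, 2.21 and 2.78 CPM in LPS cells (log2 fold change 0.84 ± 0.22; edgeR, adjusted p = 0.0176). That call was lost without calycosin plus LPS 1 or 3 or LPS 1 or 2. Against vehicle, the Atp5s level in calycosin plus LPS cells had a log2 fold change of -0.04.

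In edgeR on counts, more subunit genes were called lower between calycosin plus LPS cells and vehicle cells than in the other comparisons, while on TPM more were called lower between LPS cells and vehicle cells. Of 75 subunit genes, 44 were called lower (58.7%) and 3 higher (4.0%), against 23.6% and 25.4% of all genes tested, and the medians were -0.63 and 0.00 on the log2 scale. This comparison shares its libraries with the 2 above. Complex I had 20 genes lower and 2 higher, complex III 5 lower, complex IV 6 lower and 1 higher, and complex V 13 lower. No gene was called higher in complex III or in complex V. In complex III, 1 was higher at an unadjusted p under 0.05, 1 with DESeq2, 0 with limma on TPM and 1 without vehicle 3. In complex V all of these counts were 0. Without vehicle 3, 59 genes were called lower, against 29.0%, and 5 higher, against 29.3%. With vehicle 3 as the only vehicle library and calycosin plus LPS 2 left out, 15 were called lower, against 13.3%, and 0 higher, against 17.2%. Groups did not overlap for 32 genes that were lower in all 3 calycosin plus LPS libraries, against 27.1% of all genes, and for 4 that were higher, against 29.1%.

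Other scalings moved all genes as well as the subunits. With upper-quartile scaling, 47 subunit genes were called lower in LPS cells than in vehicle cells, against 37.2% of all genes, and 2 higher, against 21.9%. Limma on log2(TPM + 1) called 60 lower, against 47.9%, and 0 higher, against 9.86%, and with DESeq2 33 lower, against 29.6%, and 3 higher, against 29.2%. For calycosin plus LPS over LPS, upper-quartile scaling gave 3 lower, against 11.1%, and 2 higher, against 18.6%, limma gave 0 lower, against 2.05%, and 3 higher, against 8.83%, and DESeq2 gave 6 lower, against 17.8%, and 3 higher, against 17.2%. For calycosin plus LPS over vehicle, upper-quartile scaling gave 52 lower, against 29.5%, and 1 higher, against 21%, limma gave 29 lower, against 25.4%, and 1 higher, against 9.71%, and DESeq2 gave 48 lower, against 26.7%, and 4 higher, against 26.4%. Without vehicle 3 and calycosin plus LPS 2, 54 were lower in LPS cells, against 35.3%, and 4 higher, against 31.0%, and 59 were lower in calycosin plus LPS cells, against 29.7%, and 5 higher, against 30.4%, each over vehicle. With vehicle 3 as the only vehicle library, 15 were lower in calycosin plus LPS cells than in LPS cells, against 15.3%, and 2 higher, against 17.5%. The subunit median stayed below the median of all genes under TMM, upper-quartile scaling and TPM in all 3 comparisons. Between TMM and upper-quartile scaling this could hardly differ, since a scaling factor shifts all genes of a library alike. With vehicle 3 as the only vehicle library, the subunit median minus that of all genes was 0.01 for LPS over vehicle.

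**Figure D4:**
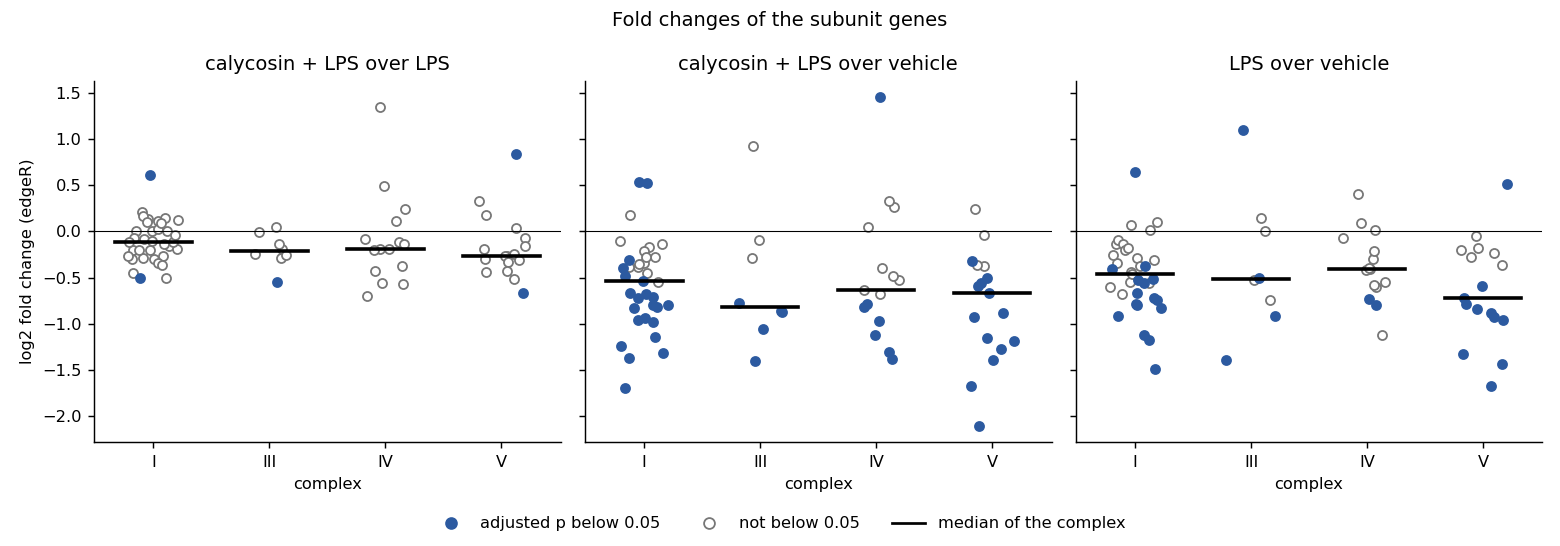
Log2 fold change (y axis) of each subunit gene by complex (x axis) in the 3 comparisons, filled where edgeR's adjusted p was below 0.05, with bars at the medians. Medians of calycosin plus LPS over LPS run from -0.27 to -0.11, those of calycosin plus LPS over vehicle from -0.81 to -0.54, and those of LPS over vehicle from -0.72 to -0.41.

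Atp5k again had the largest fold difference, with 2.91, 5.14 and 4.15 CPM in calycosin plus LPS cells, against 21.4, 23.2 and 7.76 CPM in vehicle cells (log2 fold change -2.10 ± 0.38; edgeR, adjusted p = 0.00144). With vehicle 3 alone and without calycosin plus LPS 2 it was -1.14 and still called. Uqcrh was at less than the lowest vehicle library in all 3, with a log2 fold change of -1.05 ± 0.13 (edgeR, adjusted p = 0.000134). Atp5g1 fell by 1.39, Ndufs8 by 1.37, Cox5a by 1.3 and Cox6b1 by 1.38, and Ndufb2, a small membrane-arm subunit of complex I, by 1.24, none with overlapping groups. Uqcrq, an accessory subunit of complex III, fell by 0.87 and Uqcrfs1, its Rieske iron-sulphur protein, by 0.77, calls lost with vehicle 3 alone and without calycosin plus LPS 1 or 3 or vehicle 1 or 2. In all, 23 of the 44 genes were called with each library left out in turn. Atp5k, Uqcrh, Atp5g1, Ndufs8, Cox5a, Cox6b1 and Ndufb2 were among 13 genes called both with each library left out in turn and with vehicle 3 alone. Cox4i1, the largest nuclear-encoded subunit of complex IV, fell by 0.97, but its groups overlapped and it was not called with vehicle 3 alone. Atp5b fell by 0.67 and Atp5a1 by 0.32, and the call of Atp5a1 was lost when any library other than LPS 3 or vehicle 3 was left out. The call of Atp5b was lost without calycosin plus LPS 1 or 3 or vehicle 1 or 2.

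Higher in calycosin plus LPS cells than in vehicle cells were Ndufb10, Ndufs5 and Ndufa4l2, a paralog of Ndufa4 known as a hypoxia-induced gene. Ndufa4l2 had 1.00, 0.751 and 1.23 CPM in calycosin plus LPS cells, 0.455, 0.164 and 0.540 CPM in LPS cells and 0.221, 0.473 and 0.395 CPM in vehicle cells. All 3 calycosin plus LPS libraries were above the others, at 32, 32 and 38 counts. The log2 fold change was 1.45 ± 0.46 over vehicle (edgeR, adjusted p = 0.026) and 1.35 ± 0.48 over LPS, which was not called (edgeR, adjusted p = 0.0602). The call over vehicle was lost without calycosin plus LPS 1 or 3 or vehicle 1, that of Ndufb10 without calycosin plus LPS 1 or vehicle 1 or 2, and that of Ndufs5 without calycosin plus LPS 1 or 3 or vehicle 1 or 2.

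Among isoform pairs of complex IV, the muscle isoform Cox6a2 was expressed beside the ubiquitous Cox6a1. It made up 21.1% to 28.7% of their summed TPM in calycosin plus LPS libraries and 22.6% to 32.9% in LPS libraries. These ranges overlap. In vehicle libraries 1 to 3 the share was 18%, 20% and 33.2%. Vehicle 1 and 2 thus lay below all libraries of the other groups, and vehicle 3 lay above them. Cox6a1, Cox6a2, Cox7a1 and Ndufa4 were called in no comparison, nor was Cox7a2l, a supercomplex factor related to Cox7a2. Cox7a2, Cox7b and Cox8a were called lower in calycosin plus LPS cells than in vehicle cells, by 1.12, 0.82 and 0.78 on the log2 scale. None of the 3 was called with vehicle 3 alone, and the calls of Cox7a2 and Cox8a were also lost without calycosin plus LPS 1 or 3 or vehicle 1 or 2.

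The 13 mitochondrially encoded subunits went the other way between libraries. The catalytic subunit of complex IV, mt-Co1, had 54360, 28000 and 57410 CPM in calycosin plus LPS cells, 44640, 47160 and 47970 CPM in LPS cells, and 10580, 10400 and 42350 CPM in vehicle cells. Vehicle 3 was close to the LPS libraries and calycosin plus LPS 2 lay between the sets. With edgeR, 0 of 13 were called in any comparison, also at an unadjusted p under 0.05. Of all genes, edgeR called 27.3% higher and 28.9% lower for LPS over vehicle. For calycosin plus LPS these shares were 16.1% and 12.9% over LPS, and 25.4% and 23.6% over vehicle. Against vehicle, DESeq2 called 1 higher in LPS cells (29.2% of all genes) and 1 higher in calycosin plus LPS cells (26.4%). Limma on TPM called 1 higher (9.86%) and 1 lower (47.9%) in LPS cells, against vehicle. In calycosin plus LPS cells it called 1 lower than in vehicle cells (25.4%). Without vehicle 3, 13 of 13 were called higher in LPS cells (against 29.8% of all genes), with a median log2 fold change of 3.00. In calycosin plus LPS cells 12 were called higher than in vehicle cells (against 29.3%). With vehicle 3 as the only vehicle library, the median log2 fold change in LPS cells was -0.43. Counts of mitochondrially encoded genes per count of the nuclear-encoded subunits were 45.7, 14.7 and 54.7 in calycosin plus LPS cells, 38.5, 40.0 and 29.8 in LPS cells and 4.05, 3.90 and 45.5 in vehicle cells. The part that this shift had in the subunit results was not tested. With the mitochondrial share as a covariate, 36 subunit genes were called lower in LPS cells than in vehicle cells, against 31.6% of all genes, and 5 higher, against 31.4%, while the subunit median moved to -0.27 and its difference from all genes to -0.24. In that fit 17 were lower in calycosin plus LPS cells than in LPS cells, against 22.9%, and 3 higher, against 24.1%. Against vehicle, 45 were lower in calycosin plus LPS cells, against 26.5%, and 5 higher, against 30%, with a median of -0.42.

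Of the 4 genes of complex II, Sdhd, a membrane anchor, had 31.9, 43.8 and 34.7 CPM in calycosin plus LPS cells, 39.7, 40.7 and 42.0 CPM in LPS cells, and 146, 152 and 71.2 CPM in vehicle cells. It fell by 1.59 on the log2 scale in LPS cells (edgeR, adjusted p = 0.000559) and by 1.74 in calycosin plus LPS cells, both against vehicle, and was called with every library left out in turn and with vehicle 3 alone (-0.83 and -1.10). Sdhb, an iron-sulphur subunit, fell by 0.45 and 0.74 and the anchor Sdhc fell by 0.53 against vehicle in calycosin plus LPS cells, none called with vehicle 3 alone. The call of Sdhb in LPS cells was also lost without any 1 of 7 libraries, and that of Sdhc without any 1 of 4. Sdha, the flavoprotein, was not called. Cycs, cytochrome c, had 172, 156 and 162 CPM in calycosin plus LPS cells, 221, 227 and 298 CPM in LPS cells and 80.4, 79.8 and 94.2 CPM in vehicle cells. The 3 groups did not overlap, with log2 fold changes of 1.55 ± 0.14 for LPS over vehicle (edgeR, adjusted p = 1.13e-05), -0.60 ± 0.14 for calycosin plus LPS over LPS (edgeR, adjusted p = 0.00996) and 0.95 ± 0.14 for calycosin plus LPS over vehicle (edgeR, adjusted p = 0.000427). Cyc1, the cytochrome c1 of complex III, fell by 1.21 and Ndufab1, the acyl carrier protein of complex I, by 0.63 in LPS cells, neither of them called with vehicle 3 alone, and the call of Cyc1 was also lost without LPS 1 or 2.

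Among assembly factors, calls of all genes tested again give the background (28.9% lower and 27.3% higher for LPS over vehicle). It was 12.9% lower and 16.1% higher for calycosin plus LPS over LPS. For calycosin plus LPS over vehicle it was 23.6% lower and 25.4% higher. Of 15 complex I factors, 7 were lower (46.7%) in LPS cells than in vehicle cells (Tmem186 -1.14, Ndufaf3 -1.13 and Ndufaf7 -1.07 at the most on the log2 scale), 3 were higher in calycosin plus LPS cells than in LPS cells (Ndufaf3 0.93, Ndufaf7 0.72, Tmem126b 0.54) and 2 were lower in calycosin plus LPS cells than in vehicle cells. Ndufaf3 was not called in LPS cells with vehicle 3 alone. Ndufaf7, a methyltransferase that acts on a core subunit, had 9.93, 11.3 and 9.91 CPM in calycosin plus LPS cells, 5.51, 6.32 and 7.10 CPM in LPS cells and 13.6, 14.6 and 11.6 CPM in vehicle cells. The 3 groups did not overlap. Of 6 complex III factors, 4 were lower and 1 higher with LPS, led by Uqcc2, at 9.88, 8.86 and 8.31 CPM in LPS cells, against 46.0, 39.9 and 20.2 CPM in vehicle cells (log2 fold change -1.97 ± 0.28; edgeR, adjusted p = 0.000214; -1.19 with vehicle 3 alone). Of 18 complex IV factors tested, 5 were higher (27.8%) and 4 lower (22.2%) with LPS than with vehicle, close to or below the shares of all genes. Cox18, an insertase for mt-Co2, rose by 1.42, the copper chaperone Sco1 by 1.35 and Coa5 by 0.96, while Coa6 fell by 1.57, Cox14 by 1.53 and Coa3 by 1.43. Coa6 and Cox14 were not called with vehicle 3 alone. In calycosin plus LPS cells against LPS cells, Coa3 rose by 0.79, Sco1 fell by 0.55 and Coa5 fell by 0.48. The call of Coa3 was lost without any 1 of the 6 libraries of these groups, that of Sco1 and Tmem126b without calycosin plus LPS 3, and that of Ndufaf3 without calycosin plus LPS 1 or 2 or LPS 2. Of 4 factors of ATP synthase, Atpaf1 fell by 0.39 with LPS, a call that was lost without any 1 of 6 libraries.

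Of 11 genes of ubiquinone (coenzyme Q) synthesis, 3 were lower (27.3%, against 28.9% of all genes) and 1 higher (9.09%, against 27.3%) in LPS cells than in vehicle cells. In calycosin plus LPS cells 1 was lower (9.09%, against 12.9%) and 3 higher (27.3%, against 16.1%) than in LPS cells. With so few genes, these shares show nothing particular to the list. Coq8a, an atypical kinase of the pathway, had 1.5, 2.42 and 1.36 CPM in calycosin plus LPS cells, 0.546, 0.451 and 0.665 CPM in LPS cells and 4.36, 4.63 and 3.07 CPM in vehicle cells. The 3 groups did not overlap, with log2 fold changes of -2.85 ± 0.32 for LPS over vehicle (edgeR, adjusted p = 5.21e-05) and 1.67 ± 0.33 for calycosin plus LPS over LPS (edgeR, adjusted p = 0.00476). Pdss1, which makes the isoprenoid tail, rose by 1.27 with LPS.

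Of 11 nuclear regulators of respiratory genes tested, 3 were higher and 3 lower in LPS cells than in vehicle cells, 27.3% in each direction and close to the shares of all genes. Ppargc1b, a coactivator of mitochondrial genes, had 5.54, 5.07 and 6.57 CPM in calycosin plus LPS cells, 1.32, 0.984 and 0.706 CPM in LPS cells and 14.8, 15.3 and 20.7 CPM in vehicle cells. The 3 groups were fully apart, and vehicle 3 was the highest library. Its log2 fold changes were -4.08 ± 0.25 for LPS over vehicle (edgeR, adjusted p = 8.53e-07), 2.51 ± 0.25 for calycosin plus LPS over LPS (edgeR, adjusted p = 0.000186) and -1.57 ± 0.22 for calycosin plus LPS over vehicle (edgeR, adjusted p = 0.000284). Esrra, a nuclear receptor that works with it, fell by 0.95 in LPS cells, where the call was lost without any 1 of 5 libraries and with vehicle 3 alone (-0.06), and by 1.39 in calycosin plus LPS cells, each against vehicle. Gabpb1 and Gabpa, the subunits of the ETS factor GABP, rose by 1.31 and 1.02 in LPS cells and by 1.25 and 0.90 in calycosin plus LPS cells, each against vehicle. Polrmt, the mitochondrial RNA polymerase, fell by 1.07 with LPS.

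**Figure D5:**
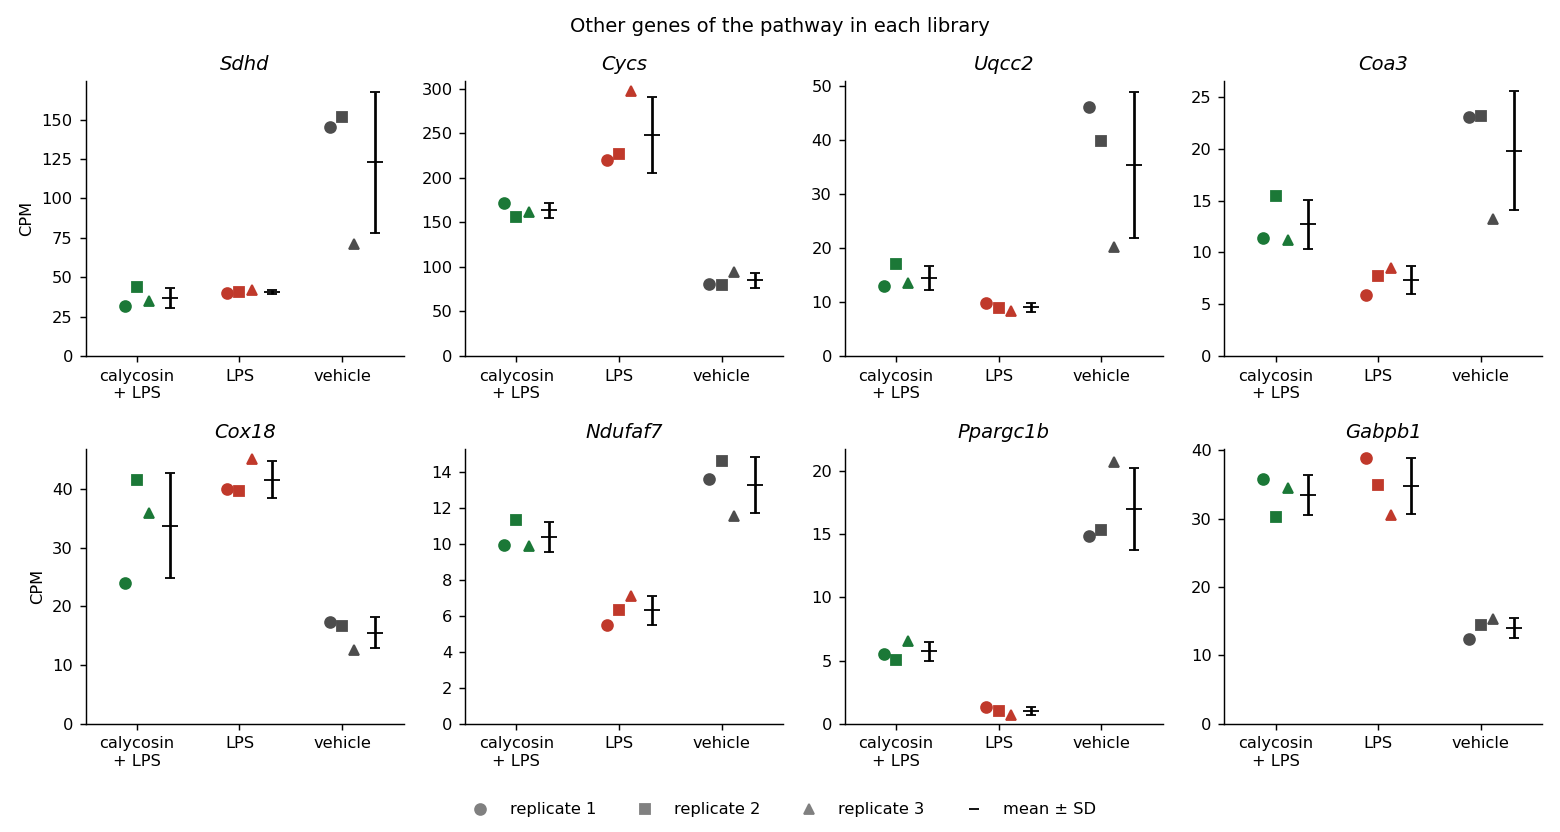
CPM of 8 further genes of the pathway (y axes) in each library, by group along the x axes, with symbols for replicates and bars for mean ± SD. In Ppargc1b, Ndufaf7 and Cycs the 3 groups do not overlap, with calycosin plus LPS between LPS and vehicle, while Sdhd and Uqcc2 show vehicle 3 between vehicle 1 and 2 and the LPS libraries.

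Genes of the ribosomes, which are also encoded in the nucleus by short transcripts, were counted beside the subunits. Of 87 cytosolic ribosomal protein genes, 26 were lower (29.9%, close to the 28.9% of all genes) and 4 higher (4.6%, against 27.3%) in LPS cells than in vehicle cells, with a median log2 fold change of -0.52. In calycosin plus LPS cells 44 were lower (50.6%, against 23.6%) and 0 higher (against 25.4%) than in vehicle cells. There no gene was higher at an unadjusted p under 0.05, with DESeq2 or with limma on TPM. Without vehicle 3 the counts lower were 67 (against 34.1% of all genes) and 70 (against 29.0%). The counts higher were then 6 (against 29.8%) and 4 (against 29.3%). With vehicle 3 as the only vehicle library, the median log2 fold change was 0.09 in LPS cells and -0.09 in calycosin plus LPS cells. Of 78 mitochondrial ribosomal protein genes, 29 were lower (37.2%) and 13 higher (16.7%) with LPS, with a median of -0.23. The subunit genes had a median transcript length of 608 bases, against 1327 over all genes tested. Across the 75 subunit genes, Spearman's rho of the LPS over vehicle log2 fold change was 0.16 with transcript length and -0.23 with GC content, against 0.04 and -0.30 across 14425 genes. For the difference of vehicle 3 from vehicle 1 and 2, rho with GC content was -0.08 across subunit genes and -0.40 across 14425 genes. For that of calycosin plus LPS 2 from libraries 1 and 3 of its group, it was 0.26 and 0.44. These are descriptions over genes of the same libraries, and genes are not independent replicates.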

How the data were processed

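Tools named in the submitters' processing notes are HISAT2 2.0, StringTie 1.3.3b and Trimmomatic 0.36, with build mm10 and in no stated order. The authors deposited raw counts per gene for 51826 genes and TPM, scaled for length and depth, for 51799. For the counter, the strand setting and the annotation release, nothing is given in the sources used here. For Ndufa13 and Ndufb6, whose exons overlap an opposite-strand gene over more than 20% of their length, reads may be shared, and 21 subunit genes have a pseudogene copy of at least 95% identity over 200 bases in GENCODE M21.

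Genes were filtered with filterByExpr, scaled by TMM (factors 0.786 to 1.42) and fitted over all 9 libraries with a term per group in edgeR 4.0.16 (R 4.3.3). Groups were compared with the two-sided quasi-likelihood F test, and p was adjusted by Benjamini-Hochberg over all 14458 genes. SEs were derived from the test statistic. An exact permutation of 3 against 3 cannot go below 0.1. DESeq2 1.42.0 and limma 3.58.1 on log2(TPM + 1), which understates folds of low genes, were alternatives, with other scalings, filters and covariates and with libraries left out. Fits with vehicle 3 as the only vehicle library also leave out calycosin plus LPS 2 and assume that the lone library varies like the other groups. These and the fits without both libraries that stand apart were chosen after seeing the data.

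Members, gene lists and motifs were chosen with earlier results of these data known. Named in each complex and comparison were up to 5 called genes with the largest change, the 2 with the highest TPM, isoform pairs and rows that are no subunit, and up to 3 called genes of each pathway list, with complex II, Ndufab1, Cyc1 and Cycs whole. Uqcrc1, Uqcrc2, Atp5f1, Gabpa, mt-Co1 and the genes whose promoters are printed were chosen after their values were seen. The test was tried on simulated counts of 3 against 3 libraries, with the same spread for all genes. No simulated library stood apart, so that trial does not cover vehicle 3 or calycosin plus LPS 2. Figures and library differences use CPM, and differences between libraries a prior of 0.5.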

Additional observations from a re-analysis of the deposited data

How the results depend on the processing

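Counts of subunit genes are given as higher and lower calls. For LPS over vehicle, where the counts were 3 and 30, upper-quartile scaling gave 2 and 47, the mitochondrial share as covariate gave 5 and 36, limma gave 0 and 60 on log2(TPM + 1) and 0 and 59 on log2(TPM + 0.1), leaving out vehicle 3 and calycosin plus LPS 2 gave 4 and 54, and vehicle 3 as the only vehicle library gave 1 and 5. For calycosin plus LPS over LPS (2 and 3), lower calls numbered 9 with only these 2 groups in the fit (17.6% of all genes were lower there), 17 with the mitochondrial share (22.9%), 5 with the GC and length offset (15.3%), 6 with DESeq2, 0 and 0 in the TPM fits, 26 without both libraries that stand apart and 15 with vehicle 3 as the only vehicle library. For calycosin plus LPS over vehicle (3 and 44), higher calls numbered 1 with upper-quartile scaling, 5 with the mitochondrial share, 5 without both libraries and 0 with vehicle 3 alone, where 15 were lower, and the TPM fits gave 1 and 29 on log2(TPM + 1) and 0 and 26 on log2(TPM + 0.1). Leaving out 1 library at a time gave 1 to 4 higher and 18 to 53 lower for LPS over vehicle, 0 to 2 and 1 to 12 for calycosin plus LPS over LPS, and 0 to 5 and 25 to 59 for calycosin plus LPS over vehicle. Over all genes, the fits with 1 library left out called 22.2% to 29.8% higher and 24.1% to 34.1% lower for LPS over vehicle. For the other comparisons, in the same order, they called 11.3% to 21.2% and 8.2% to 17.2%, and 19.5% to 29.3% and 16.9% to 29%. On log2(TPM + 0.1), all-gene shares were 9.86% higher and 47.5% lower for LPS over vehicle. They were 11.1% and 2.11% for calycosin plus LPS over LPS and 9.67% and 23.7% for calycosin plus LPS over vehicle. The cause of these shifts was not tested.

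Upper-quartile scaling moved the all-gene median to -0.27 for LPS over vehicle, 0.09 for calycosin plus LPS over LPS and -0.15 for calycosin plus LPS over vehicle, and TPM to -0.63, 0.25 and -0.38. The subunit median minus that of all genes was -0.43, -0.21 and -0.63 with TMM, the same values with upper-quartile scaling, and -0.56, -0.12 and -0.63 on TPM. For LPS over vehicle it was -0.60 without vehicle 3, -0.24 with the mitochondrial share and 0.01 with vehicle 3 as the only vehicle library. Over all genes, higher and lower calls for LPS over vehicle were 3954 and 4180 with TMM, 3163 and 5373 with upper-quartile scaling and 1464 and 7117 on TPM. For calycosin plus LPS over LPS they were 2333 and 1871 with TMM and 1312 and 305 on TPM, and for calycosin plus LPS over vehicle 3672 and 3413, 3043 and 4269, and 1442 and 3769.

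Of 56 calls of named subunit genes, 31 fell short of the threshold and 1 turned its sign with vehicle 3 as the only vehicle library. In the TPM fits 13 and 16 fell short, with calycosin plus LPS 1 or vehicle 1 left out 16 each, with calycosin plus LPS 3 or vehicle 2 left out 14 each, and with vehicle 3 left out or DESeq2 0. In LPS over vehicle the sign turned for Cox6b1 (0.12), Ndufa7 (0.06) and Ndufb9 (0.06) with vehicle 3 alone, and for Ndufs5 (-0.13) and Atp5f1 (-0.27) in both TPM fits. In calycosin plus LPS over vehicle it turned for Ndufb6 (0.01) with vehicle 3 alone and for Ndufa11 (0.16) with the GC and length offset. Whether replicate numbers pair the samples could not be decided. Deviations of same-numbered libraries correlated between -0.173 and 0.364, and those of differently numbered libraries between -0.472 and 0.358. These ranges overlap, and the libraries that stand apart enter the group means behind them. With the replicate block, counts were 3 and 28, 2 and 3, and 4 and 42 for the comparisons in the order above. The all-gene shares were 27% and 27.2%, 14.6% and 11.8%, and 24.9% and 21.9%. Each group had 3 libraries, and depth limits Cox7a1 and Ndufa4l2, with 119 and 176 counts in all.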

Other observations

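A pseudogene copy held more than 5% of the counts of its parent gene for 2 subunit genes. Gm10039, a copy of Atp5g1, had 122, 211 and 181 counts in calycosin plus LPS libraries, 175, 173 and 137 in LPS libraries and 749, 850 and 267 in vehicle libraries. Gm15920, a copy of Ndufa12, had 473, 676 and 455 counts in calycosin plus LPS libraries, 353, 343 and 405 in LPS libraries and 650, 592 and 351 in vehicle libraries. Scaled to the effective library size, Gm10039 had 3.82 to 5.86 CPM in calycosin plus LPS libraries, 5.69 to 7.96 CPM in LPS libraries and 8.12 to 17.5 CPM in vehicle libraries, and Gm15920 had 14.7 to 15.9 CPM, 14.1 to 16.8 CPM and 10.7 to 13 CPM in the same groups. How the authors counted reads that match both rows is not given in the sources used here.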
